A study of Homo sapiens with 6 samples.

Results

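The enzymes of purine and pyrimidine synthesis are followed here as 34 genes, out of 58395 genes in the files. They are chosen by symbol for their place in the pathway and matched to Ensembl gene IDs, with no threshold on a measured value, but with earlier results of these data known. The RNA-seq compares HCT116, a human colorectal cancer cell line, with a non-target hairpin (shControl, 3 libraries) or a hairpin against STBD1 (shSTBD1, 3 libraries). STBD1 is a glycogen-binding protein proposed to act as an adaptor for autophagy of glycogen. Both groups carry a lentiviral hairpin, are selected with a drug (the methods give puromycin or G418) and grow in DMEM with fetal bovine serum, and the labels name a single hairpin per group. The design calls the libraries biological replicates without saying whether the infections were separate, so each p-value measures the spread between these 3 libraries a group.

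Cells build purines stepwise on a ribose phosphate activated as PRPP, which yields IMP, the parent of AMP and GMP. The pyrimidine ring is closed first and joined to PRPP afterwards, which yields UMP, the parent of CTP and of the deoxynucleotide dTMP. Ribonucleotide reductase turns ribonucleotides into deoxyribonucleotides for DNA, and salvage enzymes recover free bases and nucleosides. Proliferating cells, cancer cells among them, are known for a high demand on both routes, and several of these enzymes are targets of cancer drugs.

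Values below are either CPM, which are RSEM expected counts scaled to a common total by library size and edgeR's TMM factors, or TPM, the deposited values per transcript length. The 6 libraries hold between 17689097 and 21668274 expected counts each. STBD1 itself reads 16.2, 15.7 and 14.4 CPM in shControl 1 to 3 and 11.6, 9.06 and 9.18 CPM in shSTBD1 1 to 3, a partial loss of 0.64 ± 0.098 (SE) in log2 (adjusted p = 2.91e-04 by edgeR). Of 8 epithelial markers, EPCAM, CDH1, KRT8, KRT18 and KRT19 are present, whereas CDX1 is at 0 in all 6 libraries and VIL1 and LGALS4 are at or below 0.312 CPM. Summed TPM of the 8 runs from 2851 to 2885 in shControl and from 3236 to 3373 in shSTBD1. At an adjusted p of 0.05 by edgeR, 4 of the 5 present are higher (80%), against 8.22% of all genes tested. Of 8 markers of leukocytes, fibroblasts and endothelium, PTPRC and CD3E are at 0 throughout, and the summed TPM runs from 22.4 to 26.5 in shControl and from 29.1 to 32.2 in shSTBD1. Most of this sum is the fibroblast marker COL1A1, which is present in all 6 libraries, lies above CD68 in each and does not pass the test. Of these 8, 3 hold enough counts to be tested, and CD68 alone is called, as higher (9.68 against 13.4 CPM, adjusted p = 0.00268 by edgeR). That is 33.3% of those tested, against 8.22% of all genes. The part of either marker list in the results below was not tested.

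The promoter windows shown first are those that bear on the comparisons that follow, and are printed 5′ to 3′ as RefSeq gives them for GRCh38.p14, from 250 bases before to 50 bases after a gene's start. Capitals mark the letters searched for. These are CACGTG, the E-box bound by MYC and related factors, which reads the same on both strands, and short cores of E2F sites on either strand, which are spelled TTCCCGC in the first form, TTCGCGC in the second, TTGCCGC in the third and TTGGCGC in the last. The window at PAICS also holds the start of PPAT, the gene that opposes it, RRM1 and RRM2 encode the subunits of ribonucleotide reductase, and APRT has the largest increase among the 34.
PAICS, chr4:56435502-56435801, + strand: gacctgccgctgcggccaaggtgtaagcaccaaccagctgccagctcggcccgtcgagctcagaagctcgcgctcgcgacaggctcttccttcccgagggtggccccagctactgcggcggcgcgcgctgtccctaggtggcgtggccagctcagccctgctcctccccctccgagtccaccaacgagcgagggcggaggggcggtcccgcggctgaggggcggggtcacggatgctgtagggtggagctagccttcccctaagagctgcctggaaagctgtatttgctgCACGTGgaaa
RRM1, chr11:4094435-4094734, + strand: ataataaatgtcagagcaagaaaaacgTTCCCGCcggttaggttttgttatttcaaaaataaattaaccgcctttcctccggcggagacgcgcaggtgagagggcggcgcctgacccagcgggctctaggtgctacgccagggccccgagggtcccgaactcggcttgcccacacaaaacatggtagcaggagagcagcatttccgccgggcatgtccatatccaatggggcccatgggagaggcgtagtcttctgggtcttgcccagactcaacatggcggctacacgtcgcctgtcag
RRM2, chr2:10122318-10122617, + strand: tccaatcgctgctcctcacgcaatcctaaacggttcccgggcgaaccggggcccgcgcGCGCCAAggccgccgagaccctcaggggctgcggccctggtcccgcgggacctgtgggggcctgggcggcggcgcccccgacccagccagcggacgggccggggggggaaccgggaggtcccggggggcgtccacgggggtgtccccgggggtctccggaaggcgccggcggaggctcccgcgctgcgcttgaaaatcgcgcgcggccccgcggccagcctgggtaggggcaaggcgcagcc
APRT, chr16:88811879-88812178, - strand: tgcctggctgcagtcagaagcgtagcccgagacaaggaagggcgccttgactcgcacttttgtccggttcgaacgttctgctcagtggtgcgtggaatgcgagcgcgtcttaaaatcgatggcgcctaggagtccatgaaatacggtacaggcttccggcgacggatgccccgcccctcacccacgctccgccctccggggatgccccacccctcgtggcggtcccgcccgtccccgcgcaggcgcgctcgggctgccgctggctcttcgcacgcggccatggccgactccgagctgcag

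PPAT and PAICS, which encode enzymes of purine ring assembly, lie on opposite strands with 136 bases between their starts. The CACGTG at bases 291 to 296 of the PAICS window is the same stretch, chr4:56435792-56435797, that lies at bases 69 to 74 of the PPAT window. RRM1 holds TTCCCGC 223 bases before its start and RRM2 holds GCGCCAA, the last form read on the other strand, 192 bases before its start. A second RRM2 window, which starts further downstream, holds none of these letters, nor does the APRT window. The E2F core of PAICS lies in a further window of that gene, chr4:56436010-56436309, which is not printed. Promoters of 32 of the 34 enzymes are matched, 11 of them with more than 1 window. The E2F core occurs in 12 of the 32 (37.5%), namely ADSS2, DCK, DUT, GART, GUK1, PAICS, PRPS1, PRPS2, RRM1, RRM2, TK1 and TYMS, against 15.3% of 27305 genes with a promoter. The E-box occurs in 6 (18.8%), namely ATIC, DCK, DHODH, NME1, PAICS and PPAT, against 8.77% of all genes. Counted over windows, the E2F core is in 26.5% of 49 against 13% of 35116, and the E-box in 12.2% against 7.26%. The 27305 genes are not restricted to those tested here, whereas all 34 enzymes are tested. Each match is a run of letters and not a measured binding site.

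All 34 enzymes are expressed and hold enough counts to be tested, from 109 to 13872 expected counts in a library. NME2 and NME1, which make nucleoside triphosphates from diphosphates, are the most abundant per length, with means of 1317 and 510 TPM over the 6 libraries. IMPDH2, the rate-limiting step towards GMP, follows with 458 TPM, then RRM2 with 377 TPM and the thymidine kinase TK1 with 291 TPM. In all, 11 enzymes exceed 100 TPM, and 3 lie below 10 TPM, which are the mitochondrial thymidine kinase TK2 (8.28 TPM), the CTP synthase CTPS2 (6.93 TPM) and the adenylosuccinate synthase ADSS1 (6.23 TPM). Of the 33 neighbouring pairs in this order, 23 overlap in their range over the libraries, so the finer order is not resolved.

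Between the groups, 5 of the 34 enzymes (14.7%) pass an adjusted p of 0.05 in edgeR, against 15.8% of all 15566 genes tested. RRM1 and PFAS are lower in shSTBD1, which is 5.88% of the enzymes against 7.54% of all genes. APRT, IMPDH2 and NME1 are higher, which is 8.82% against 8.22%. The share of changed enzymes is thus near the background in both directions. The median log2 fold change over the 34 is 0.039, against 0.0023 over all genes, and the median absolute change is 0.068 against 0.11. In bulk RNA, a change in the RNA of every cell and a change in the share of cells that express a gene cannot be told apart.

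**Figure D1:**
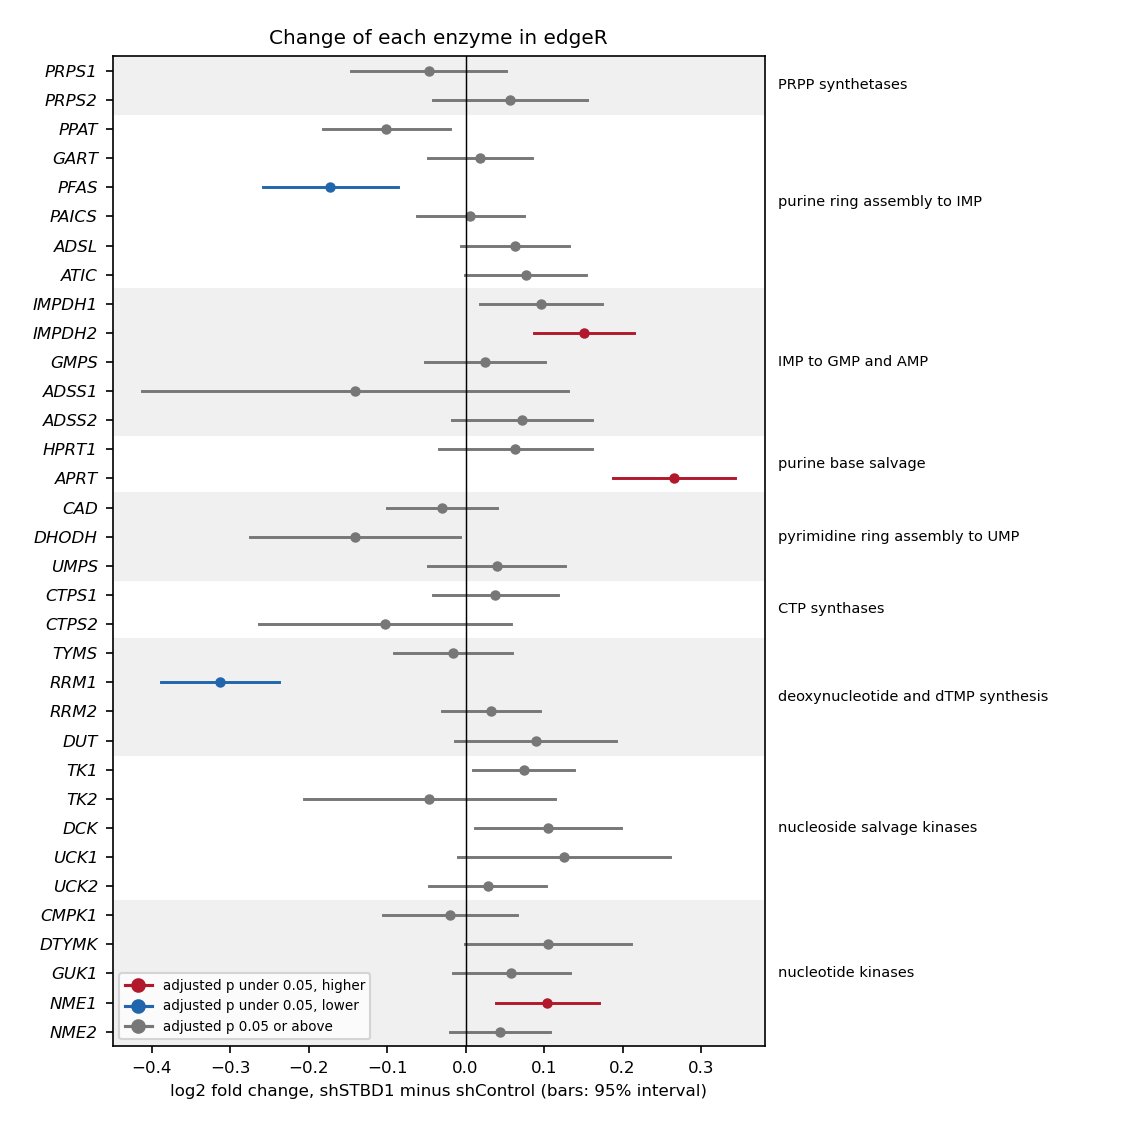
Log2 fold change of each enzyme, shSTBD1 minus shControl, from edgeR, with its 95% interval as a bar and the enzymes grouped by their step. Red and blue mark the 5 enzymes past an adjusted p of 0.05, from -0.31 (RRM1) to 0.27 (APRT), and the grey points of the other 29 lie within 0.14 of 0.

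RRM1 (ENSG00000167325, chr11:4094707-4138932, + strand) encodes the large, catalytic subunit of ribonucleotide reductase and has the largest change of the 34 in the reported fit. With effective-length offsets APRT and PFAS exceed it, and with limma on TPM PFAS does. It reads 173, 172 and 184 CPM in shControl 1 to 3, and 145, 139 and 143 CPM in shSTBD1 1 to 3. Every shSTBD1 library is below every shControl library. The mean falls from 176 ± 6.94 to 142 ± 3.22 CPM (SD, n = 3 each), a log2 fold change of -0.31 ± 0.036 (SE, adjusted p = 1.38e-05 by edgeR). The other subunit, RRM2, which carries the radical and is tied to S phase, reads 425, 415 and 426 CPM in shControl and 425, 433 and 437 CPM in shSTBD1. Its groups overlap, and its log2 fold change of 0.032 has a 95% interval from -0.031 to 0.095 (adjusted p = 0.512 by edgeR), which does not reach that of RRM1, from -0.39 to -0.24. The TPM of RRM1 over that of RRM2, a ratio chosen after the values were seen, is 0.264, 0.256 and 0.308 in shControl and 0.25, 0.219 and 0.209 in shSTBD1. The other enzymes of this step, TYMS, which makes dTMP and is the target of 5-fluorouracil, and DUT, which removes dUTP, do not pass the test, with log2 fold changes of -0.016 and 0.090. All 4 of these genes hold an E2F core in a promoter window, as listed above.

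APRT (ENSG00000198931, chr16:88809339-88811937, - strand), the salvage enzyme that returns free adenine to AMP, has the largest increase. It reads 94.5, 95.1 and 100 CPM in shControl 1 to 3 and 118, 117 and 113 CPM in shSTBD1 1 to 3. All shSTBD1 libraries lie above all shControl libraries. The mean rises 1.2-fold, from 96.7 ± 3.27 to 116 ± 2.7 CPM (SD, n = 3 each), with a log2 fold change of 0.27 ± 0.037 (SE, adjusted p = 1.15e-04 by edgeR). HPRT1, the salvage enzyme for hypoxanthine and guanine, goes from 58.3 to 61.0 CPM and does not pass the test (log2 fold change 0.063, 95% interval -0.034 to 0.16, adjusted p = 0.390 by edgeR). The interval lies below that of APRT, from 0.19 to 0.34. The TPM of APRT over that of HPRT1, also chosen after the values were seen, is 3.26, 3.28 and 3.67 in shControl and 4.35, 4.01 and 3.88 in shSTBD1.

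Among the 6 enzymes that assemble the purine ring up to IMP, only PFAS passes the test. PFAS (ENSG00000178921, chr17:8247618-8270491, + strand), which adds a nitrogen from glutamine to the growing ring, reads 128, 116 and 115 CPM in shControl 1 to 3 and 107, 106 and 105 CPM in shSTBD1 1 to 3. The groups do not overlap, and shControl 1 stands above the other shControl libraries. The mean falls from 120 ± 6.99 to 106 ± 0.945 CPM (SD, n = 3 each), a log2 fold change of -0.17 ± 0.040 (SE, adjusted p = 0.00819 by edgeR). PPAT, the first committed and rate-limiting step, goes from 120 ± 4.74 to 112 ± 3.23 CPM (log2 fold change -0.10, adjusted p = 0.0833 by edgeR), and its groups overlap. PAICS, whose window printed above also holds the start of PPAT and which performs later steps, is at 506 and 508 CPM, with a log2 fold change of 0.0058 and a 95% interval from -0.063 to 0.074. GART, ADSL and ATIC, which perform other steps of the route, have log2 fold changes of 0.018, 0.062 and 0.076 and do not pass the test. Upstream of the ring, the PRPP synthetases PRPS1 and PRPS2 give -0.047 and 0.057, neither past the test.

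From IMP onwards, IMPDH2 (ENSG00000178035, chr3:49024325-49029447, - strand) is higher in shSTBD1. It reads 471, 464 and 469 CPM in shControl 1 to 3 and 529, 521 and 508 CPM in shSTBD1 1 to 3, without overlap. The mean goes from 468 ± 3.73 to 519 ± 10.3 CPM (SD, n = 3 each), a log2 fold change of 0.15 ± 0.030 (SE, adjusted p = 0.00258 by edgeR). Its paralog IMPDH1, which catalyses the same reaction, goes from 92.7 to 99 CPM (log2 fold change 0.096, adjusted p = 0.0884 by edgeR). GMPS, which completes GMP, and ADSS1 and ADSS2, which lead to AMP, have log2 fold changes of 0.025, -0.14 and 0.072 and do not pass the test. ADSS1 is the least certain of the 34, with a 95% interval from -0.41 to 0.13 at about 6 CPM.

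On the pyrimidine side, none of the 3 enzymes that make UMP passes the test. CAD, which joins the first steps of the route in 1 protein, goes from 332 ± 12.3 to 325 ± 3.07 CPM (log2 fold change -0.030, 95% interval -0.10 to 0.040). DHODH, the mitochondrial enzyme that oxidises dihydroorotate, goes from 27.9 to 25.3 CPM without overlap of the groups, and its log2 fold change of -0.14 has an adjusted p of 0.146 by edgeR. UMPS, which joins the ring to PRPP and completes UMP, gives 0.040. The CTP synthases CTPS1 and CTPS2 give 0.038 and -0.10, neither past the test. Of the kinases that recover nucleosides, the thymidine kinase TK1 goes from 276 to 290 CPM (log2 fold change 0.074, adjusted p = 0.110 by edgeR) and the deoxycytidine kinase DCK from 55.2 to 59.3 CPM (0.11, adjusted p = 0.118 by edgeR), both without overlap of the groups. The uridine-cytidine kinases UCK1 and UCK2 give log2 fold changes of 0.13 and 0.028 and TK2 gives -0.046, and no kinase of nucleosides passes the test.

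Of the kinases that raise nucleotides to diphosphates and triphosphates, NME1 (ENSG00000239672, chr17:51153559-51162428, + strand) passes the test. It reads 286, 287 and 294 CPM in shControl 1 to 3 and 313, 316 and 302 CPM in shSTBD1 1 to 3. The groups do not overlap, but the gap between shControl 3 and shSTBD1 3 is small. The mean goes from 289 ± 4.06 to 310 ± 7.36 CPM (SD, n = 3 each), a log2 fold change of 0.10 ± 0.031 (SE, adjusted p = 0.0315 by edgeR). NME1 loses the call when any of shControl 2, shControl 3, shSTBD1 1 or shSTBD1 2 is left out, with adjusted p-values from 0.0567 to 0.149 by edgeR. The neighbouring NME2 begins 3006 bases after the end of NME1 and gives a log2 fold change of 0.043 (adjusted p = 0.364 by edgeR). A readthrough model, NME1-NME2, shares 638 exon bases with NME1 and 603 with NME2, so the counting could split reads between the 3 models. That model holds 26.5 CPM in shControl and 26.3 CPM in shSTBD1. CMPK1, DTYMK and GUK1, the kinases of CMP and UMP, of dTMP and of GMP, give -0.020, 0.10 and 0.058 and do not pass the test.

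**Figure D2:**
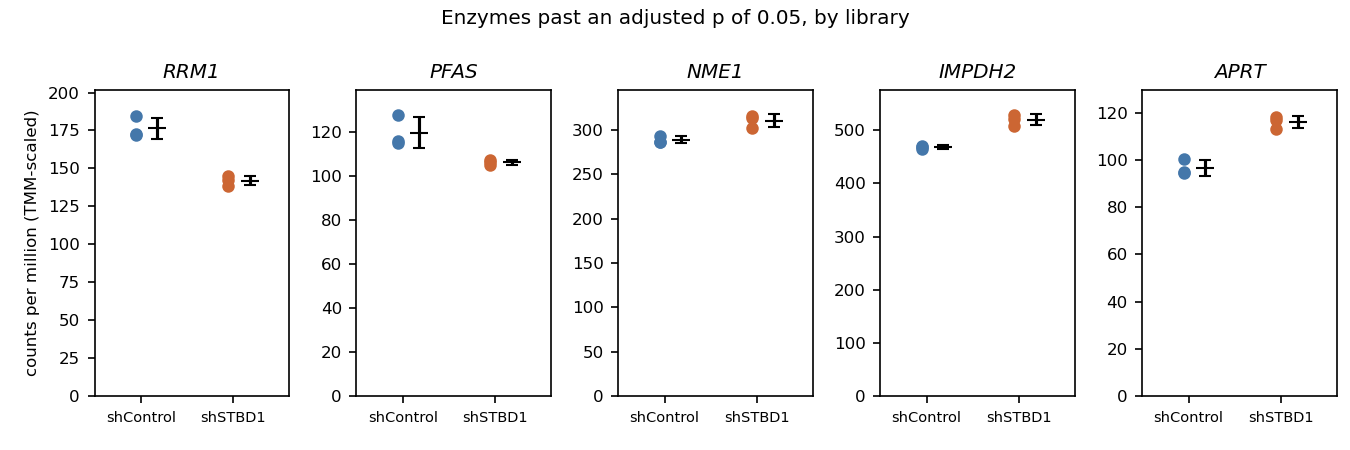
CPM in each library for the 5 enzymes past an adjusted p of 0.05, with axes from 0, 1 point per library, and the mean ± SD of 3 libraries in black. RRM1 and PFAS are lower in every shSTBD1 library and NME1, IMPDH2 and APRT are higher, from a drop of 176 to 142 CPM for RRM1 to a rise of 96.7 to 116 CPM for APRT.

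Of the 29 enzymes that do not pass the test, 20 have a log2 fold change above 0 and 9 below. The largest absolute change among them is 0.14, and for 25 of them the whole 95% interval lies within 0.25 of 0 on the log2 scale. The exceptions are ADSS1, DHODH, CTPS2 and UCK1, all below 30 CPM. At an unadjusted p under 0.05, edgeR counts 10 of the 34 (29.4%), against 30.0% of all genes tested. In CPM, every shSTBD1 library lies on the same side of every shControl library for 13 of the 34 (38.2%), against 33.6% of all genes tested. The 8 of these that are not past the adjusted p are ADSL, ATIC, IMPDH1, DHODH, TK1, DCK, UCK1 and GUK1, and DHODH is the 1 that is lower in shSTBD1.

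Of these steps, 7 are served by paralog pairs, whose TPM per library gives the share of each gene. NME1 makes up 27.7%, 27.5% and 27.3% of NME1 plus NME2 in shControl and 28.7%, 28.3% and 28.1% in shSTBD1. These groups do not overlap and the difference is 0.836 percentage points, at the smallest exact permutation p that 3 against 3 libraries allow (two-sided p = 0.1, adjusted p = 0.7 over 7 pairs). IMPDH1 makes up 14.2% of its pair in shControl and 13.7% in shSTBD1, and TK1 97.0% and 97.4%. The shares of PRPS1 (47.4% in both groups), ADSS1 (14.7% and 14.9%), CTPS1 (87.9% in both) and UCK1 (18.7% and 18.9%) shift by at most 0.286 percentage points, which is less than their SD over libraries. No pair can reach an adjusted p of 0.05 in this design.

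Effective length, RSEM's estimate of the mean usable length of a gene's transcripts, separates the groups for 4 of the 34 enzymes (11.8%), against 9.55% of all genes tested. These are PRPS1, GMPS, CTPS2 and TK2. For GMPS it falls from 2850 ± 86.8 to 2461 ± 73.1 bases (SD, n = 3 each), with 2761, 2856 and 2934 bases in shControl and 2476, 2526 and 2382 in shSTBD1. The TPM of GMPS accordingly goes from 48.6 to 56.3, whereas its CPM stays at 121 and 123. PFAS shows the reverse in a single library, since shSTBD1 1 has an effective length of 3575 bases against 2651 to 2987 in the others. The TPM of PFAS there is 34.1, against 44 and 42.4 in shSTBD1 2 and 3, whereas the CPM of the 3 libraries are alike.

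When effective length enters the edgeR fit as an offset, 2 of the 5 enzymes keep an adjusted p under 0.05, APRT (0.0143) and IMPDH2 (0.0496). RRM1, PFAS and NME1 then give 0.0873, 0.216 and 0.135, with log2 fold changes of -0.258, -0.265 and 0.116, so the change of PFAS is larger than the reported one and that of NME1 is alike. The genes called among all tested drop to 510, which is 3.28%. With limma on log2(TPM + 1), PFAS gives -0.29 and RRM1 -0.28, but none of the 34 passes, APRT comes nearest with 0.0522, and 1.88% of all genes pass. Each of the 5 keeps its direction in all 16 alternatives. RRM1, PFAS, IMPDH2 and APRT stay past the threshold when any 1 library is left out, but without shControl 1 the count rises to 8 with the addition of PPAT, ATIC and TK1. Without shControl 1, 16.2% of all genes pass, against 15.8% in the reported fit.

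A further 41 genes handle nucleotides without being counted among the synthesis enzymes, as breakdown and salvage enzymes, nucleoside transporters, adenylate kinases and guards of the nucleotide pool. Of these, 38 are tested and 12 pass (31.6%), 9 higher (23.7%) and 3 lower (7.89%), against 15.8%, 8.22% and 7.54% of all genes tested. XDH, DPYS and UPB1 hold too few counts to be tested. The median log2 fold change of the 38 is 0.015. AMPD2, which deaminates AMP to IMP, rises from 56.2 ± 2.74 to 67.5 ± 1.5 CPM (log2 fold change 0.27, adjusted p = 6.79e-04 by edgeR). CDA, the cytidine deaminase, rises from 11.3 ± 0.742 to 14.8 ± 1.14 CPM (0.40, adjusted p = 0.00494 by edgeR). SLC29A2, a nucleoside transporter of the cell membrane, rises from 37.6 ± 2.14 to 44.4 ± 1.73 CPM (0.24, adjusted p = 0.00634 by edgeR). The lower genes are DCTPP1, which hydrolyses dCTP (-0.13, adjusted p = 0.0141 by edgeR), NME6 of the nucleoside diphosphate kinase family (-0.30, adjusted p = 0.0276 by edgeR) and MTAP, which releases adenine from methylthioadenosine (-0.10, adjusted p = 0.0322 by edgeR). MTAP supplies the adenine that APRT uses, and it goes from 482 ± 5.28 to 450 ± 4.28 CPM, but from 205 ± 7.45 to 206 ± 4.68 TPM, with an effective length of 2691 bases in shControl and 2465 in shSTBD1. NME6 turns between the scales, from 16.9 to 13.8 CPM but from 11.2 to 13.6 TPM, with an effective length of 1732 bases in shControl and 1150 in shSTBD1. In all, the mean TPM of 3 of the 12 moves against the CPM, the other being RRM2B, a ribonucleotide reductase subunit, at 0.12 in log2 and 32.5 against 31.5 TPM. The count of 12 falls to 6, 7 and 5 without shSTBD1 1, 2 and 3, and to 0 with effective-length offsets or limma on TPM. The called share of all genes is lower too, at 9.84%, 8.9% and 9.46% without shSTBD1 1, 2 and 3, against 15.8% in the reported fit. It is 3.28% when effective length is the offset, and 1.88% or 1.86% under limma, depending on the value added to TPM.

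Because the deoxynucleotide enzymes are expressed with DNA replication, 15 replication genes are set beside them. Their summed TPM runs from 1599 to 1651 in shControl and from 1590 to 1647 in shSTBD1, which overlap. Of the 15, 7 pass the test (46.7%), 3 higher (20%) and 4 lower (26.7%), against 15.8%, 8.22% and 7.54% of all genes tested, and the median log2 fold change is -0.0091. MCM6, a subunit of the replicative helicase, reads 133, 127 and 128 CPM in shControl and 215, 214 and 218 CPM in shSTBD1 (log2 fold change 0.74, adjusted p = 7.08e-10 by edgeR). CDC6, which helps to load the helicase, and PCNA, the polymerase clamp, rise by 0.12 and 0.14 in log2. UHRF1, FEN1 and MCM2 fall by 0.11 each in log2, and POLA1, a subunit of the priming DNA polymerase, goes from 66.0 ± 4.99 to 58.9 ± 0.230 CPM (-0.16, adjusted p = 0.0373 by edgeR). The mean TPM of all 7 moves in the same direction as the CPM. The count of 7 falls to 2 without shControl 3, to 1 without shSTBD1 1, to 1 without shSTBD1 2 and to 3 without shSTBD1 3, and to 1 with effective-length offsets or limma on TPM. Calls among all genes fall as well, from 15.8% to 11.5%, 9.84%, 8.9% and 9.46% in these left-out fits, in that order. They fall to 3.28% with effective-length offsets, and to 1.88% or 1.86% with limma on log2(TPM + 1) or log2(TPM + 0.1).

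**Figure D3:**
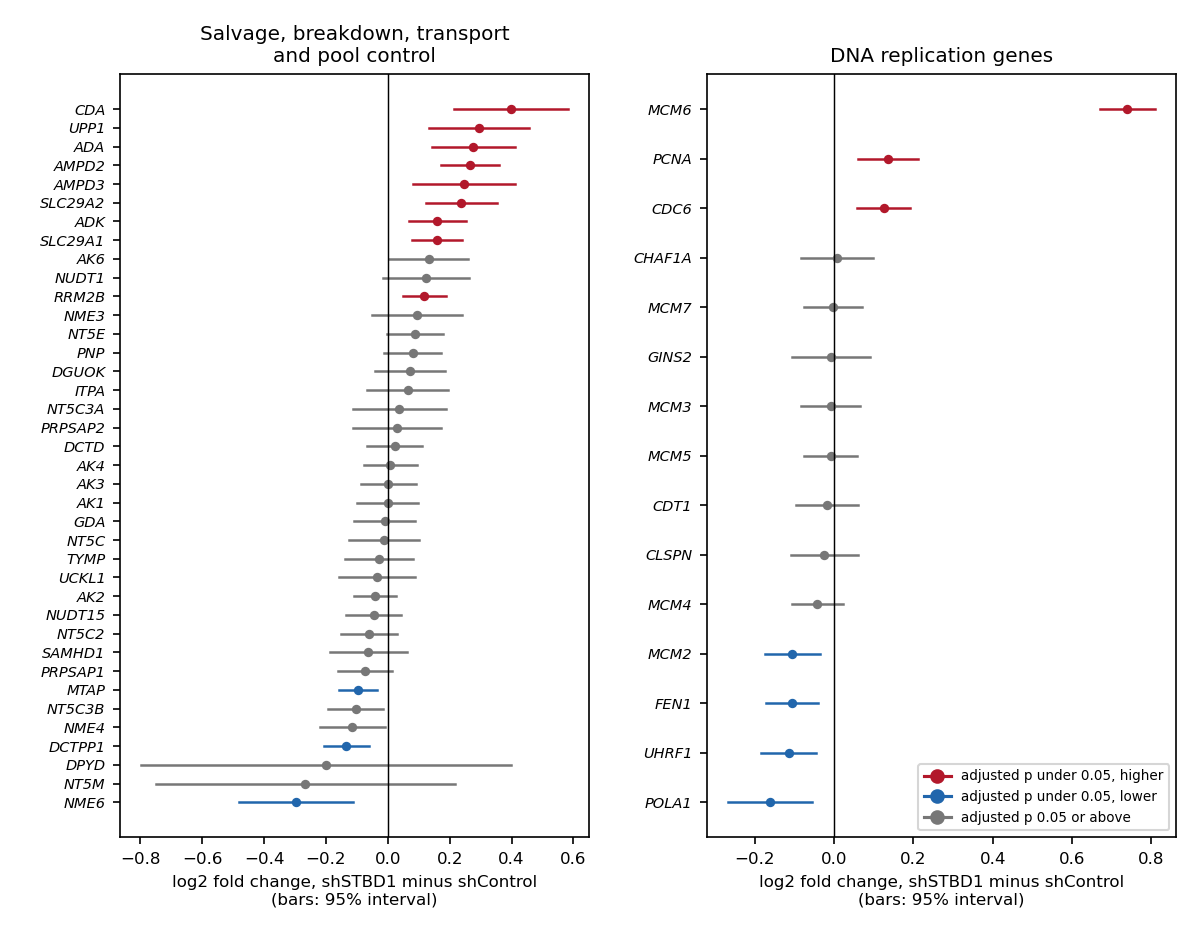
Log2 fold change, shSTBD1 minus shControl, with 95% intervals from edgeR, for 38 tested genes of salvage, breakdown, transport and pool control (left) and 15 DNA replication genes (right), each sorted by its change. On the left 9 genes are past an adjusted p of 0.05 to the right of 0 and 3 to the left, and on the right MCM6 stands apart at 0.74 while 4 of the 7 called genes are lower.

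Reads shared between gene models limit a few of the enzymes. By GENCODE release 44, 13 of the 34 share exon bases with another model and 8 with a model that is itself tested, and no source used here states whether the counting used strand. TYMS shares 967 exon bases with ENOSF1 on the opposite strand, which gives a log2 fold change of -0.015. RRM1 and IMPDH2 overlap only models that are not among the genes tested, and APRT and PFAS overlap none. Whether the untested models were counted at all was not examined. For IMPDH2 they include a protein-coding model on the same strand that shares 1680 exon bases. RSEM's posterior SD of the count is at most 0.406% of the count for any of the 34, and is 0 in every library for 24 of them.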

How the data were processed

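RNA from HCT116 cells with shControl (n = 3) or shSTBD1 (n = 3) is sequenced as paired-end reads, 1 library per replicate, and grouped by the labels. The authors align the reads with STAR 2.7.1a, using hg38 and the gene models of Ensembl release 93, and gene abundance is then estimated with RSEM 1.3.1 (versions as in the submitters' processing notes). The deposited expected counts are not normalized. The deposited TPM values are divided by effective length and brought to a common sum. Effective length and posterior SD of the count come from the same deposited files. Whether the counting used strand is not given in the sources used here.

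Of 58395 gene IDs, 57754 match a symbol. Expected counts are rounded, filtered by filterByExpr (15566 genes left), scaled by TMM and tested in edgeR 4.0.16 (quasi-likelihood, R 4.3.3) with no block, as the methods name none. The p-values are adjusted by Benjamini-Hochberg over all tested genes, and SE is taken from the fold change and F. Totals run from 17689097 to 21668274 and the common biological coefficient of variation is 3.37%. Paralog shares of TPM are compared by an exact permutation test, two-sided. No pair of libraries holds identical values. The scripts were tested on simulated data.

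The alternatives are DESeq2 1.42.0, library size or upper-quartile factors in place of TMM, no filter, at least 10 counts in every library, unrounded counts, effective-length offsets, the replicate number as a block, limma 3.58.1 on log2(TPM + 1) or log2(TPM + 0.1), and leaving out each of 6 libraries. For paralog shares, posterior mean TPM is the alternative.

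All 34 enzymes may be named. Of the other nucleotide genes and of the replication genes, the 3 with the smallest p in each direction past an adjusted p of 0.05 are named, and POLA1, the fourth lower replication gene, and RRM2B were added after their values were seen. The enzymes and lists were chosen with earlier results of these data known. Gene positions are from GENCODE release 44 on GRCh38, a later annotation than Ensembl release 93, and promoter sequences from RefSeq (GRCh38.p14). Cells that re-express STBD1 are not analysed here.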

Additional observations from a re-analysis of the deposited data

How the results depend on the processing

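Of 544 fold changes of single enzymes under the 16 alternatives, 500 keep direction and side of the threshold, 24 change direction, 17 lose the call and 3 gain it, and 22 of the 34 enzymes keep their direction throughout. The count of 5 enzymes becomes 2 (0 of them lower) with effective-length offsets, 0 in both directions with limma on log2(TPM + 1) or log2(TPM + 0.1), and 4 to 8 when a library is left out (2 to 5 higher, 2 to 3 lower). Among all genes tested, 3.28% pass with effective-length offsets, 1.88% and 1.86% with limma, and 8.9% to 16.2% when a library is left out. The median becomes 0.014 with limma at either added value (0.0140 and 0.0142), and runs from 0.029 to 0.052 when a library is left out. The other nucleotide genes go from 12 to 0 in either direction with effective-length offsets or limma, and to 5 to 10 when a library is left out (5 to 8 higher, 0 to 2 lower). The replication genes go from 7 to 1 (1 higher, 0 lower) with effective-length offsets or limma, and to 1 to 6 when a library is left out (1 to 3 higher, 0 to 3 lower). Counts under DESeq2, the other scalings, the other filters and unrounded counts stay within 1.5 times the reported ones. Calls among all genes are 10.1% with DESeq2 and 9.85% with no filter. They run from 15% to 17.9% with the other scalings, at least 10 counts in every library and unrounded counts, against 15.8% in the reported fit. The cause of these differences was not tested.

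Signs turn only for small changes that are not past the test. With effective-length offsets, PRPS1 gives 0.013, ADSS1 0.076, CAD 0.015 and CTPS2 0.0024. With limma on log2(TPM + 1) and log2(TPM + 0.1), PRPS2 gives -0.015 and -0.015, GART -0.0066 and -0.0066, PAICS -0.0084 and -0.0084, CTPS1 -0.0083 and -0.0084, GUK1 -0.015 and -0.015, and ADSS1 0.043 and 0.050. When a library is left out, values run from -0.0051 to 0.030 for GART, -0.011 to 0.030 for PAICS, -0.0035 to 0.053 for GMPS, -0.055 to 0.0052 for TYMS and -0.065 to 0.010 for CMPK1. With posterior mean TPM the share of PRPS1 differs by -0.568 percentage points and that of ADSS1 by -0.00736. Leaving out a library, the share differs by -1.2 to 1.4 percentage points for PRPS1, -0.704 to 1.6 for ADSS1, -0.666 to 0.511 for CTPS1 and -0.313 to 1.09 for UCK1.

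Deviations from the group means correlate by 0.0703, 0.0353 and -0.00184 between libraries of the same number. These values give no sign that the numbers pair the samples, but 3 libraries a group cannot exclude it. With the replicate number as a block, 5 of the 34 enzymes pass, and 2579 of all genes against 2453 without it.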
